A study of Mus musculus with 160 samples.

Results

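The genes described here encode the proteins that let calcium into cells through voltage-gated channels and that carry it out again or into stores. They were chosen by symbol: pore subunits (Cacna1), α2δ (Cacna2d), β (Cacnb) and γ (Cacng) subunits of the channels, the calcium ATPases of the endoplasmic reticulum, plasma membrane and Golgi (Atp2a, Atp2b and Atp2c), and the sodium-calcium exchangers (Slc8a). A gene also needed a mean of at least 0.5 CPM (counts scaled to the library's total) over the 40 libraries of at least 1 tissue. Of the 39179 genes in the table, 38 matched the symbols and 36 met the level. The genes just inside it were Cacna1s, Cacng1 and Atp2c2, with best tissue means of 0.765, 0.923 and 0.936 CPM, and those just outside were Atp2a1 (0.336 CPM) and Cacna1f (0.321 CPM). The 36 comprised 9 pore genes, 4 α2δ, 4 β, 8 γ, 2 endoplasmic reticulum pumps (SERCA), 4 plasma membrane pumps (PMCA), 2 Golgi pumps (SPCA) and 3 exchangers (NCX).

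Total RNA was sequenced in 160 libraries from 4 tissues (striatum, cortex, cerebellum, liver) of mice aged 12 weeks, on a background labelled C57BL/6J. R6/2 mice, with the Tg(HDexon1)62Gpb transgene, express the first exon of human HTT, with its CAG repeat expanded, from the human promoter and are a fast model of Huntington's disease. They were compared with wild-type (WT) mice. Mice of either genotype had received once, by mouth, 10 mg/kg of the kynurenine 3-monooxygenase inhibitor CHDI-00340246 in HP-β-CD and citrate buffer, or this vehicle alone, and were sampled 6 h after dosing. There were 16 groups (R6/2 with drug, R6/2 with vehicle, WT with drug and WT with vehicle, in each tissue), each with 10 libraries, 5 from females and 5 from males. The libraries held 28.5 to 46.3 M estimated counts, and Xist and Ddx3y matched the labelled sex in 160 of 160. The labels do not say whether tissues came from the same mice. Each tissue was tested alone, so its p-values measure the spread between its own libraries. The comparison of effects between brain regions depends on whether regions share mice.

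Voltage-gated calcium channels open when a cell depolarises. The pore-forming α1 subunit sets the channel's type, and α2δ and β subunits bring the pore to the membrane and shape its current. Most γ subunits expressed in the brain are better known as transmembrane AMPA receptor regulatory proteins (TARPs), which traffic glutamate receptors. After entry, calcium is cleared by PMCA pumps and sodium-calcium exchangers at the surface and by SERCA and SPCA pumps into the endoplasmic reticulum and the Golgi. In medium spiny neurons of the striatum and Purkinje cells of the cerebellum this machinery takes part in dendritic spikes and synaptic plasticity. In Purkinje cells it also takes part in pacemaking.

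Levels differed widely between the tissues before genotype was considered. In WT vehicle libraries 15 members had their highest mean in the cerebellum, 11 in the striatum, 10 in the cortex and 0 in the liver, and FPKM (fragments scaled to library total and gene length) gave the same tissue for all 36. The most abundant transcript per length was Atp2a2, the main SERCA pump of neurons, with a level of 304 ± 9.01 FPKM in WT cerebellum, 186.2 ± 11.1 FPKM in WT cortex and 174.9 ± 9.38 FPKM in WT striatum (mean ± SD, n = 10 each). Among the pores, Cacna1a, the P/Q-type channel of presynaptic terminals and Purkinje cells, led in the cerebellum at a level of 93.1 ± 5.01 FPKM. In WT striatum the levels of Cacna1e (R-type), Cacna1h (T-type) and Cacna1a lay close together, at 22.9 ± 3.88, 20.99 ± 2.97 and 20.6 ± 2.22 FPKM, and their ranges overlapped. The leading α2δ gene differed by region: Cacna2d3 had the highest level in WT striatum (69.2 ± 5.34 FPKM), Cacna2d1 in WT cortex (41.5 ± 3.53 FPKM) and Cacna2d2 in WT cerebellum (37.5 ± 1.77 FPKM).

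Under vehicle, R6/2 brains had lower levels of many of these genes. In the striatum 22 of 36 members fell and 2 rose, where 26.5% of all 17494 genes tested fell and 29.7% rose (edgeR quasi-likelihood test, adjusted p under 0.05). In the cortex 16 of 35 fell and 6 rose, against 26.9% and 28.1% of 17554 genes. In the cerebellum 17 of 34 fell and 8 rose, against 26% and 26.3% of 17206 genes. In the liver, where 20 members passed the filter on low counts, 1 fell and 4 rose, against 12.8% and 12.9% of 15145 genes. Relative to their size, the counts of rises were the less stable ones. On FPKM (limma-trend), 5 members rose in the striatum, 10 in the cortex and 8 in the liver. Falls were lost too on FPKM: Cacna1s, Cacnb4, Cacna2d4 and Atp2c2 in the striatum, and Cacna1h and Cacna2d1 in the cortex. In the cerebellum Cacng7 and Cacna1a lost their falls on FPKM. With 1 replicate number left out at a time, 1 to 2 members rose in the striatum (1 without replicate 2, 3 or 4). In the cortex 3 to 9 then rose, with 3 without replicate 3. The median log2 fold change (R6/2 over WT) of the members tested was -0.49 in the striatum, -0.12 in the cortex, -0.18 in the cerebellum and 0.34 in the liver, beside medians of 0.018, 0.014, 0.0074 and 0.0062 over all genes tested. The 10 R6/2 libraries lay wholly above or wholly below the 10 WT libraries for 16 of 36 members in the striatum, 7 of 35 in the cortex and 17 of 34 in the cerebellum, a pattern shown by 17.1%, 14.1% and 17.2% of all genes tested there. Cacng1 and Atp2c2 missed the filter in the cerebellum and Cacng1 in the cortex.

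**Figure D1:**
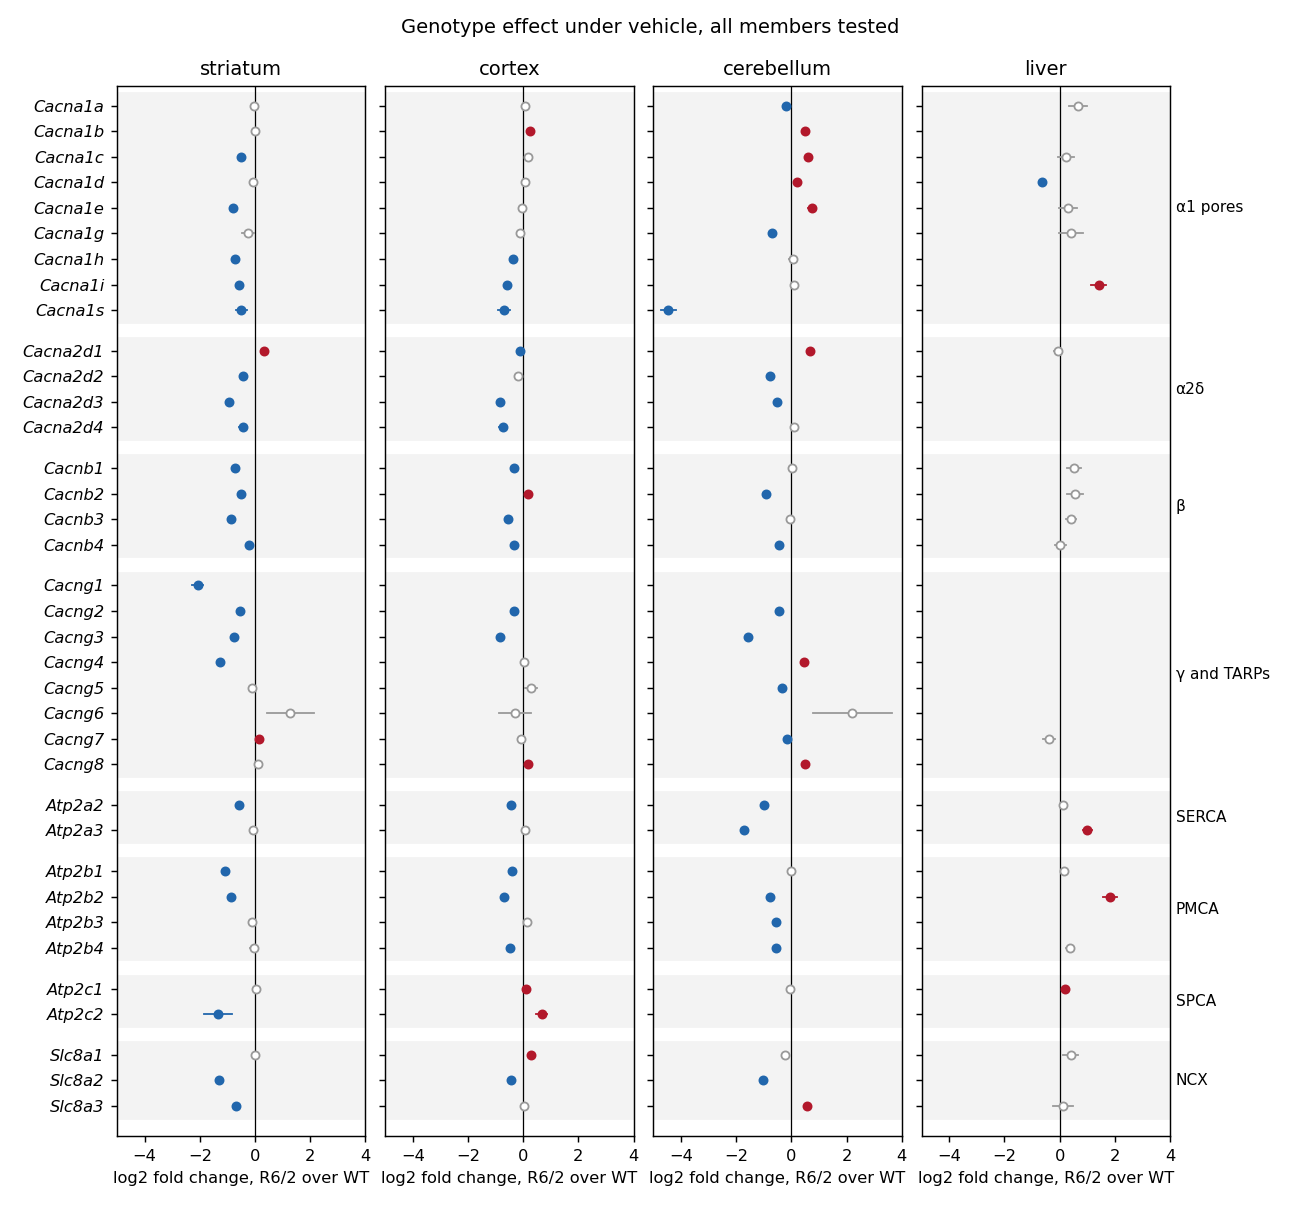
Log2 fold change of R6/2 over WT under vehicle (x axis) for every member tested, by role (y axis), in 4 tissues; bars are ± 1 standard error. Blue points fell, red points rose and open grey points missed an adjusted p of 0.05 in edgeR. Blue points make up 22 of 36 in the striatum, and the cerebellum holds both the steepest fall (Cacna1s, -4.46) and 8 rises.

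Markers of the principal neurons moved with genotype in the same libraries. Of 12 medium spiny neuron markers, 11 fell in the striatum, and their summed level was 2629.6 to 3407 CPM in R6/2 striatum and 8696 to 10045 CPM in WT striatum. All 12 Purkinje cell markers fell in the cerebellum, where the sums were 3482 to 4303 CPM in R6/2 cerebellum and 10900.0 to 12785 CPM in WT cerebellum. The falls of this list were not limited to the cerebellum: 6 of 12 fell and 2 rose in the striatum, and 8 fell and 2 rose in the cortex. Its sums were 2052 to 2422 CPM in R6/2 striatum and 3929.5 to 4328 CPM in WT striatum. They were 1285 to 1458 CPM in R6/2 cortex and 2128 to 2509 CPM in WT cortex. In the cortex 8 of 10 projection neuron markers fell, with sums of 2604 to 3295 CPM in R6/2 cortex and 4627 to 5730.5 CPM in WT cortex. Astrocyte markers fell for 6 of 8 genes in the striatum (2183 to 2597 CPM in R6/2 striatum and 3467 to 4538 CPM in WT striatum), 6 of 8 in the cortex (2772 to 3261 CPM in R6/2 cortex and 4603 to 5324 CPM in WT cortex) and 5 of 8 in the cerebellum (2695 to 3073 CPM in R6/2 cerebellum and 2995 to 3800.3 CPM in WT cerebellum). Microglia markers rose for 8 of 8 genes in the cerebellum, with sums of 96.1 to 129.6 CPM in R6/2 cerebellum and 66.1 to 91.5 CPM in WT cerebellum. In the striatum 3 of 8 microglia markers fell and 0 rose, and in the cortex 0 fell and 0 rose. Endothelial and mural markers fell for 5 of 9 in the striatum, 0 of 9 in the cortex and 1 of 9 in the cerebellum. Interneuron markers fell for 8 of 10 tested in the striatum, 7 of 10 in the cortex and 6 of 7 in the cerebellum, granule cell markers for 7 of 9 in the cerebellum and oligodendrocyte markers for 4 of 8, 3 of 8 and 4 of 8 in the 3 regions. Oligodendrocyte precursor markers rose for 4 of 5 in the cerebellum, and in the striatum 2 rose and 2 fell. Beside these counts, 26.5%, 26.9% and 26% of all genes fell in striatum, cortex and cerebellum, and 29.7%, 28.1% and 26.3% rose. No marker was at 0 in all 40 libraries of a tissue. In bulk tissue, fewer cells of a type and less RNA per cell cannot be told apart, and the part of these shifts in the results on the members was not tested.

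Values per library are CPM normalised by TMM within a tissue, and where 3 values are given for a group they are the lowest, the median and the highest of its 10 libraries. Log2 fold changes are R6/2 over WT with the standard error of the edgeR fit, and p-values are adjusted over all genes of the tissue.

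Calls among the pore subunits differed by region. In the striatum 5 of 9 fell and none rose, where 26.5% of all genes fell and 29.7% rose. In the cortex 3 fell and 1 rose, against 26.9% and 28.1%. In the cerebellum 3 fell and 4 rose, against 26% and 26.3%. With only 9 genes, the falls in cortex and cerebellum were near the shares of all genes. Among the high-voltage pores of the striatum, Cacna1e, the R-type pore, had 117.7, 183.6 and 212 CPM in R6/2 striatum, against 202, 318 and 359 CPM in WT striatum. Only the edges of the 2 ranges met (log2 fold change -0.79 ± 0.088, adjusted p = 8.75e-10, edgeR). Cacna1c, an L-type pore of dendrites, also fell there (-0.50 ± 0.092, adjusted p = 1.61e-05, edgeR), with overlapping groups. Among the T-type pores, which open near rest, Cacna1h ranged over 74.3 to 98.9 CPM in R6/2 striatum and 104.2 to 161.2 CPM in WT striatum (log2 fold change -0.74 ± 0.085), and Cacna1i over 67.5 to 92.2 CPM in R6/2 striatum and 91.6 to 145.6 CPM in WT striatum (-0.59 ± 0.072). The presynaptic pores Cacna1a and Cacna1b did not pass in the striatum, with log2 fold changes of -0.032 ± 0.057 and 0.012 ± 0.063. On FPKM, Cacna1a passed there as a rise.

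In the cortex, Cacna1i had 68.8, 75.2 and 77.7 CPM in R6/2 cortex, against 88.1, 111.2 and 137.5 CPM in WT cortex, and the groups did not overlap (log2 fold change -0.57 ± 0.056, adjusted p = 6.16e-11, edgeR). Cacna1b, the N-type pore of nerve terminals, had 171.2, 184.2 and 200.1 CPM in R6/2 cortex, against 128.4, 158.8 and 174.6 CPM in WT cortex. Its R6/2 libraries were mostly above the WT ones with some overlap (log2 fold change 0.26 ± 0.044, adjusted p = 4.55e-06, edgeR). Cacna1h and the muscle-type pore Cacna1s also fell in the cortex, by 0.36 and 0.68 on the log2 scale, and the call of Cacna1h was lost on FPKM. Cacna1a, Cacna1c, Cacna1d, Cacna1e and Cacna1g missed the threshold, with log2 fold changes between -0.10 and 0.16. Of these, Cacna1a, Cacna1c and Cacna1d passed as rises on FPKM.

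The cerebellum showed higher levels of 4 pores and lower levels of 3. Cacna1e had 339, 450.2 and 502 CPM in R6/2 cerebellum, against 228, 269 and 320.2 CPM in WT cerebellum, with no overlap (log2 fold change 0.73 ± 0.11, adjusted p = 1.11e-06, edgeR). Cacna1c had 84.1, 106.01 and 123.5 CPM in R6/2 cerebellum, against 59.03, 70.2 and 74.9 CPM in WT cerebellum, again with no overlap (0.60 ± 0.11, adjusted p = 1.75e-05, edgeR). Cacna1b was also higher, over 111.4 to 143.3 CPM in R6/2 cerebellum and 83.7 to 102.8 CPM in WT cerebellum with no overlap (0.51 ± 0.061, adjusted p = 7.24e-09, edgeR), and Cacna1d, the other L-type pore of neurons, rose by 0.20 on the log2 scale. Cacna1g, the T-type pore that is abundant in Purkinje cells, ranged over 159.5 to 223 CPM in R6/2 cerebellum and 273 to 361 CPM in WT cerebellum (log2 fold change -0.72 ± 0.081). Cacna1a fell slightly on counts (-0.20 ± 0.065, adjusted p = 0.0105, edgeR), but on log2(FPKM + 1) its difference had the opposite sign and did not pass. Its mean level was 101.1 ± 6.06 FPKM in R6/2 cerebellum and 93.1 ± 5.01 FPKM in WT cerebellum.

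Cacna1s, the L-type pore of skeletal muscle, was rare in every tissue but showed the largest fold change among the members tested in the cerebellum. It had 0, 0.0655 and 0.117 CPM in R6/2 cerebellum, against 0.985, 1.37 and 1.74 CPM in WT cerebellum, with no overlap (log2 fold change -4.46 ± 0.28, adjusted p = 3.18e-16, edgeR). These are 23 counts summed over the 10 R6/2 libraries and 463 over the 10 WT libraries. Beside this, the 6 skeletal muscle markers summed to 1.22 to 2.75 CPM in R6/2 cerebellum and 1.12 to 1.88 CPM in WT cerebellum and of the 3 tested there 2 rose and 0 fell. In the cortex Cacna1s also fell (log2 fold change -0.68 ± 0.21), where 3 of 4 tested muscle markers fell and their sums were 3.51 to 4.43 CPM in R6/2 cortex and 7.87 to 11.4 CPM in WT cortex, and their part in the cortical result was not tested. In the striatum the log2 fold change was near the threshold (-0.49 ± 0.21, adjusted p = 0.0485 in edgeR), and the striatal call was lost under DESeq2, without the filter, on FPKM, and without replicate 1, 3, 4 or 5 or the farthest library.

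The α2δ subunits moved apart from each other. Cacna2d1, a target of gabapentin, rose in the striatum and the cerebellum, whereas Cacna2d3 fell in all 3 brain regions. In the striatum Cacna2d1 had 145.8, 162.6 and 195.4 CPM in R6/2 striatum, against 113.3, 131.7 and 141.99 CPM in WT striatum, with no overlap (log2 fold change 0.33 ± 0.054, adjusted p = 1.64e-06, edgeR). In the cerebellum it had 148.6, 159.98 and 165.5 CPM in R6/2 cerebellum, against 91.4, 98.4 and 108.95 CPM in WT cerebellum, again separate (0.68 ± 0.042, adjusted p = 1.40e-16, edgeR). In the cortex, its tissue of highest level, it fell slightly (-0.12 ± 0.041), a call lost without replicate 1 and on FPKM.

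Cacna2d3, the leading α2δ gene of the striatum, had 116.5, 137.8 and 162.3 CPM in R6/2 striatum, against 242, 278 and 293 CPM in WT striatum, so the highest R6/2 library was below the lowest WT library (log2 fold change -0.96 ± 0.055, adjusted p = 1.69e-17, edgeR). In the cortex it had 44.04, 56.6 and 74.7 CPM in R6/2 cortex, against 96.6, 103.2 and 114.6 CPM in WT cortex, likewise separate (-0.83 ± 0.057, adjusted p = 3.69e-15, edgeR). Cacna2d2, the leading α2δ gene of the cerebellum, had 108.2, 119.4 and 126.1 CPM in R6/2 cerebellum, against 182.8, 204 and 213 CPM in WT cerebellum there, also separate (-0.78 ± 0.038, adjusted p = 1.51e-19, edgeR). It also fell in the striatum (-0.43 ± 0.057). As shares of the summed α2δ FPKM, Cacna2d1 took 28.6 ± 1.45% in R6/2 striatum and 15.3 ± 0.794% in WT striatum, and 39.3 ± 1.55% in R6/2 cerebellum and 20.1 ± 0.920% in WT cerebellum (mean ± SD, n = 10 each). Cacna2d2 took 41.4 ± 1.70% in R6/2 cerebellum and 57.4 ± 1.98% in WT cerebellum.

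All 4 β genes, whose proteins chaperone the pores, fell in the striatum, where 26.5% of all genes fell. Cacnb3 had the steepest fall of them (-0.86 ± 0.075, adjusted p = 2.29e-12, edgeR), followed by Cacnb1 (-0.71 ± 0.075), Cacnb2 (-0.49 ± 0.044) and Cacnb4 (-0.22 ± 0.071). The call of Cacnb4 was lost on FPKM and without replicate 2. In the cortex Cacnb3 had 150.1, 162.8 and 171.4 CPM in R6/2 cortex, against 211, 237 and 263 CPM in WT cortex, with no overlap (-0.54 ± 0.047, adjusted p = 2.04e-12, edgeR). Cacnb2 differed by region: in the cortex it had 44.3, 47.6 and 52.2 CPM in R6/2 cortex, against 35.7, 42.7 and 48.2 CPM in WT cortex, with overlap (log2 fold change 0.16 ± 0.045, adjusted p = 0.00236, edgeR). In the cerebellum it had 24.9, 26.7 and 29.4 CPM in R6/2 cerebellum, against 49.004, 50.2 and 54.7 CPM in WT cerebellum, where all R6/2 libraries were lower (-0.91 ± 0.037, adjusted p = 3.33e-22, edgeR). Cacnb4, the main β gene of the cerebellum, fell there by 0.45 on the log2 scale. In that region Cacnb1 (0.038 ± 0.077) and Cacnb3 (-0.053 ± 0.075) did not pass.

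Among the TARPs, Cacng2 (stargazin) and Cacng3 fell in all 3 brain regions. Cacng3 had 54.5, 66.7 and 80.6 CPM in R6/2 cortex, against 104.8, 122.2 and 135.6 CPM in WT cortex, with no overlap (log2 fold change -0.84 ± 0.049, adjusted p = 7.28e-17, edgeR). In the cerebellum, where it is scarce, it had 2.04, 2.56 and 3.53 CPM in R6/2 cerebellum, against 6.51, 7.76 and 8.87 CPM in WT cerebellum, also separate (-1.56 ± 0.081, adjusted p = 7.17e-19, edgeR). Cacng2 ranged over 47.998 to 53.2 CPM in R6/2 striatum and 68.8 to 78.01 CPM in WT striatum (-0.53 ± 0.038). Cacng4 had the smallest p among the members in the striatum: 54.4, 62.04 and 70.1 CPM in R6/2 striatum, against 132.6, 147.5 and 164.4 CPM in WT striatum, a gap with no library between the groups (-1.28 ± 0.054, adjusted p = 1.92e-21, edgeR). In the cerebellum Cacng4 had 35.1, 41.4 and 52.3 CPM in R6/2 cerebellum, against 26.6, 31.8 and 36.9 CPM in WT cerebellum, with overlap (0.46 ± 0.10, adjusted p = 0.000121, edgeR). As a share of summed γ and TARP FPKM, Cacng4 took 15.1 ± 1.19% in R6/2 striatum and 27.5 ± 1.06% in WT striatum.

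Small rises were called for Cacng7 in the striatum and Cacng8 in the cortex. Cacng7, the most abundant TARP transcript per length in all 3 regions, had 100.9, 117.5 and 128.6 CPM in R6/2 striatum, against 86.5, 106.6 and 121.9 CPM in WT striatum, with broad overlap (0.15 ± 0.057, adjusted p = 0.021, edgeR), and its call was lost without replicate 2, 3 or 4. In the cerebellum it fell by 0.17 on the log2 scale, a call lost on FPKM and without replicate 1, 4 or 5. Cacng8, the TARP of hippocampus and cortex, had 21.4, 22.98 and 27.1 CPM in R6/2 cortex, against 14.5, 21.01 and 25.05 CPM in WT cortex, with overlap (0.19 ± 0.062, adjusted p = 0.00955, edgeR), lost without replicate 3. In the cerebellum Cacng8 rose by 0.49, and Cacng5 fell by 0.34. Cacng1, the γ subunit of the skeletal muscle channel, had 0.180, 0.364 and 0.799 CPM in R6/2 striatum, against 1.20, 1.63 and 2.48 CPM in WT striatum (-2.08 ± 0.20, adjusted p = 1.62e-11, edgeR), with no overlap. The summed skeletal muscle markers there were 2.36 to 4.19 CPM in R6/2 striatum and 3.84 to 6.48 CPM in WT striatum, and their part in this result was not tested.

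Both SERCA genes fell in the cerebellum, where 26% of all genes fell. Atp2a3 has a level of 68.7 ± 6.19 FPKM in WT cerebellum, 1.72 ± 0.214 FPKM in WT striatum and 1.92 ± 0.204 FPKM in WT cortex. In the cerebellum it had 74.1, 90.3 and 101.8 CPM in R6/2 cerebellum, against 257, 293 and 349.8 CPM in WT cerebellum, so that every R6/2 library was far below every WT library (log2 fold change -1.73 ± 0.056, adjusted p = 5.73e-25, edgeR). Atp2a2 had 629.5, 696 and 753 CPM in R6/2 cerebellum, against 1314, 1370.2 and 1447 CPM in WT cerebellum, also without overlap (-0.98 ± 0.034, adjusted p = 4.81e-24, edgeR). Summed SERCA levels were 182.8 ± 6.92 FPKM in R6/2 cerebellum and 373 ± 12.003 FPKM in WT cerebellum. In the striatum Atp2a2 ranged over 448 to 616 CPM in R6/2 striatum and 745 to 849 CPM in WT striatum (-0.60 ± 0.046) and in the cortex over 565 to 677 CPM in R6/2 cortex and 757 to 921 CPM in WT cortex (-0.43 ± 0.045), and both pairs were separate. Atp2a3 did not pass in the striatum (-0.072 ± 0.081) or the cortex (0.072 ± 0.094).

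PMCA genes fell in part in each brain region, and none rose in edgeR over all libraries. Atp2b3 missed the threshold in the cortex (log2 fold change 0.14, adjusted p = 0.113, edgeR), but passed there as a rise on FPKM and without replicate 1. Atp2b1, the most abundant PMCA transcript of the striatum, had 491, 557 and 704.6 CPM in R6/2 striatum, against 1049, 1214 and 1252 CPM in WT striatum, with no overlap (log2 fold change -1.07 ± 0.063, adjusted p = 3.46e-17, edgeR). It also fell in the cortex (-0.40 ± 0.059) and did not pass in the cerebellum (-0.0086 ± 0.046). Atp2b2, the fast pump of Purkinje cells and hair cells, had 372, 463 and 546 CPM in R6/2 cortex, against 643, 747 and 907 CPM in WT cortex, also separate (-0.69 ± 0.068, adjusted p = 5.55e-11, edgeR). It fell by 0.88 in the striatum and 0.76 in the cerebellum. Atp2b3 fell in the cerebellum (-0.54 ± 0.10), and Atp2b4 in the cortex (-0.47 ± 0.057) and the cerebellum (-0.56 ± 0.13). Summed PMCA levels were 162.4 ± 16.9 FPKM in R6/2 striatum and 272 ± 22.1 FPKM in WT striatum.

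Changes of the Golgi pumps were small or rested on few counts. Atp2c1, the main SPCA gene, had 178.5, 187.2 and 198.8 CPM in R6/2 cortex, against 164.5, 178.2 and 189.5 CPM in WT cortex, with overlap (0.085 ± 0.027, adjusted p = 0.0073, edgeR), a call lost without replicate 2. Atp2c2 had 0.629, 0.891 and 3.32 CPM in R6/2 cortex, against 0.516, 0.700 and 0.982 CPM in WT cortex (0.67 ± 0.21, adjusted p = 0.00793, edgeR). A single R6/2 library made its maximum, and without replicate 3 the log2 fold change was 0.27 with an adjusted p of 0.236 in edgeR. In the striatum Atp2c2 fell at a level close to 0 (0 to 0.216 CPM in R6/2 striatum and 0.0260 to 0.434 CPM in WT striatum). Its call was lost on FPKM, without replicate 2 or 4, and with consecutive library numbers grouped into blocks (the library run).

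Among the exchangers, which use the sodium gradient to expel calcium, Slc8a2 fell in all 3 regions and Slc8a3 fell in the striatum but rose in the cerebellum. Slc8a2, the main brain exchanger, had 73.9, 83.4 and 98.99 CPM in R6/2 striatum, against 188.7, 210.4 and 255 CPM in WT striatum, with no overlap (log2 fold change -1.31 ± 0.071, adjusted p = 3.05e-18, edgeR). In the cerebellum it ranged over 63.2 to 92.9 CPM in R6/2 cerebellum and 123.6 to 183.9 CPM in WT cerebellum (-1.01 ± 0.070) and in the cortex over 149.8 to 200.2 CPM in R6/2 cortex and 191.9 to 263 CPM in WT cortex (-0.45 ± 0.064). Slc8a3 had 33.4, 36.5 and 38.2 CPM in R6/2 striatum, against 54.1, 58.2 and 61.7 CPM in WT striatum, again separate (-0.68 ± 0.036, adjusted p = 1.15e-18, edgeR). In the cerebellum it had 64.3, 67.3 and 82.6 CPM in R6/2 cerebellum, against 38.4, 46.7 and 54.7 CPM in WT cerebellum, separate in the other direction (0.56 ± 0.068, adjusted p = 8.73e-09, edgeR). Slc8a1, the cardiac exchanger, rose in the cortex (0.27 ± 0.10, adjusted p = 0.0193, edgeR) and did not pass in the striatum (0.013 ± 0.12) or the cerebellum (-0.25 ± 0.11), and its cortical call was lost without replicate 3, 4 or 5. In the cerebellum Slc8a1 passed under DESeq2 and without replicate 5 or the farthest library. Slc8a2 took 47.6 ± 3.41% in R6/2 cerebellum and 68.7 ± 3.53% in WT cerebellum of the summed exchanger FPKM, and Slc8a3 36.95 ± 1.95% in R6/2 cerebellum and 18.2 ± 2.99% in WT cerebellum.

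Atp2a2, Atp2b2, Cacna1s, Cacna2d3, Cacnb4, Cacng2, Cacng3 and Slc8a2 each fell in striatum, cortex and cerebellum. These are 8 of the 34 members tested in all 3, and 10.1% of all 16469 genes tested in all 3 did so. The count rests in part on weak striatal calls. That of Cacna1s (adjusted p = 0.0485, edgeR) was lost under DESeq2, without the filter and on FPKM. It was also lost without replicate 1, 3, 4 or 5 or the farthest library. The striatal call of Cacnb4 was lost on FPKM and without replicate 2. No member rose in all 3, which 12.5% of all genes did. Cacna2d1 and Cacnb2 passed in each region with unlike signs.

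**Figure D2:**
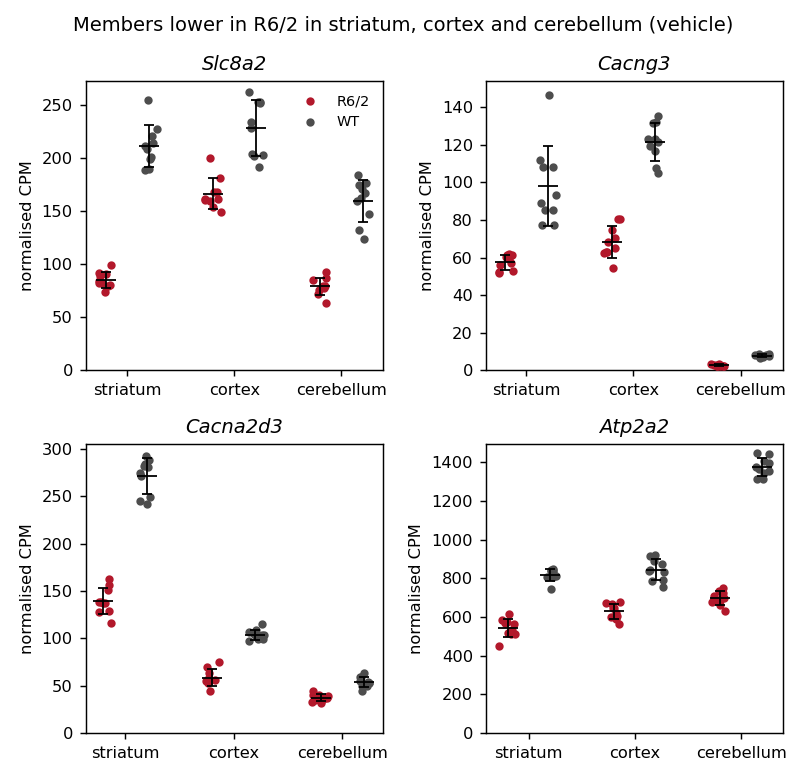
Normalised CPM (y axis) of Slc8a2, Cacng3, Cacna2d3 and Atp2a2 in each vehicle library, R6/2 in red left of WT in grey, by brain region (x axis); black bars are mean ± SD (n = 10). For Slc8a2 in the striatum the R6/2 libraries end at 98.99 CPM and the WT libraries start at 188.7 CPM.

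The promoter windows of Slc8a2 and Cacna2d3, which fell in all 3 regions, and of Cacna2d1, which rose in 2 of them, are shown as examples of the sequences before their annotated starts (RefSeq, GRCm38.p6, the 250 bases before the start, 5′ to 3′ on the gene's strand). Capitals mark GGGCGG or its reverse complement CCGCCC, the GC box.
Slc8a2 (chr7:16129576-16129825, plus strand): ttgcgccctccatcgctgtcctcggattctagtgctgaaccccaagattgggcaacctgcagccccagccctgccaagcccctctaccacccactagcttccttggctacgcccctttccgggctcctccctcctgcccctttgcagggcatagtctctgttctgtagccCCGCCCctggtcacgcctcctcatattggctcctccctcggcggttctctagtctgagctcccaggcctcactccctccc
Cacna2d3 (chr14:29721865-29722114, minus strand): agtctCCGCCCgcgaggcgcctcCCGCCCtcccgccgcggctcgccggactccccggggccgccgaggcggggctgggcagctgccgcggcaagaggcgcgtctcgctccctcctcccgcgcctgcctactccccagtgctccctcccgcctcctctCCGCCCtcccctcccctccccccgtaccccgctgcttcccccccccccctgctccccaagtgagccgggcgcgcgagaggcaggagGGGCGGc
Cacna2d1 (chr5:15934441-15934690, plus strand): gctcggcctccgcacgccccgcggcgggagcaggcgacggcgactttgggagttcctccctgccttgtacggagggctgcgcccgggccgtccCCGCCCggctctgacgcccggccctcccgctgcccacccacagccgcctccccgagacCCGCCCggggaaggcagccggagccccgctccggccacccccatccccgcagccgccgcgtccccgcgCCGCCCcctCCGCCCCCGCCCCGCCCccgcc
The table held windows for 27 of the 36 members, 40 windows in all. GGGCGG on either strand was in 20 of these 40 and in 32.7% of all 32851 windows, whose median GC content was 52.4%, against 62.0% for the members' windows. The full cAMP response element TGACGTCA was in 0 of the 40 (1.55% of all windows), and the E-box CACGTG in 0 (6.02% of all). Among the windows shown, Slc8a2 had 1, Cacna2d3 4 and Cacna2d1 6 GC boxes, overlapping ones counted.

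Cacna1c, Cacna1e, Cacng4, Cacng7 and Slc8a3 passed with opposite signs in striatum and cerebellum. Such genes were 5 of the 34 members, and 6.21% of all 16469 genes. The difference itself was taken from a joint edgeR fit of the 120 brain libraries. This fit treats them as independent and takes no account of a mouse that gave more than 1 region. The 5 members were picked by their calls in the same vehicle libraries. A small p was thus nearly given in advance, and the values below show the size of the difference. The genotype effect in the striatum minus that in the cerebellum was -1.75 ± 0.11, adjusted p = 1.94e-26 for Cacng4, -1.53 ± 0.13, adjusted p = 3.53e-19 for Cacna1e, -1.25 ± 0.084, adjusted p = 7.13e-25 for Slc8a3 and -1.10 ± 0.13, adjusted p = 1.98e-11 for Cacna1c. For Cacng7 it was 0.32 ± 0.075, adjusted p = 0.000327, and its calls in both regions were lost when some replicates were left out. In the cortex Cacna1c, Cacna1e, Cacng4 and Slc8a3 did not pass, with log2 fold changes of 0.16 ± 0.073, -0.034 ± 0.054, 0.039 ± 0.075 and 0.032 ± 0.067.

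**Figure D3:**
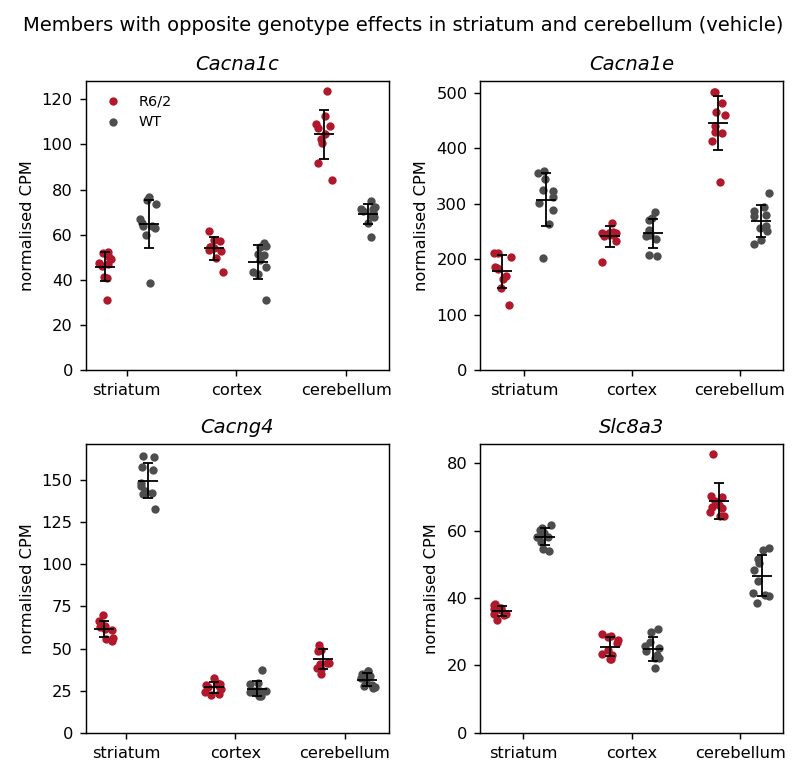
Normalised CPM (y axis) of Cacna1c, Cacna1e, Cacng4 and Slc8a3 in each vehicle library, R6/2 in red left of WT in grey, by brain region (x axis); black bars are mean ± SD (n = 10). All 4 are lower in R6/2 in the striatum and higher in the cerebellum, and for Cacng4 in the striatum the groups run over 54.4 to 70.1 CPM in R6/2 and 132.6 to 164.4 CPM in WT.

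Across all members, the genotype effect differed between striatum and cerebellum for 26 of 36 (36.2% of 18581 genes), between cerebellum and cortex for 26 (30.9%) and between striatum and cortex for 18 (22.9%). The genotype effect in the cerebellum was below that in the cortex for Atp2a3 (difference -1.82 ± 0.11, adjusted p = 1.69e-28, edgeR), Cacnb2 (-1.10 ± 0.060, adjusted p = 3.27e-31) and Cacna1s (-3.79 ± 0.36, adjusted p = 3.70e-16). For Atp2b1 the effect in the striatum was below that in the cerebellum (-1.06 ± 0.082, adjusted p = 2.58e-21, edgeR). Slc8a2 fell more in the striatum than in the cortex (-0.88 ± 0.10, adjusted p = 9.72e-13). Libraries at the same place in the numbering of each region had the same genotype, treatment and sex and the same range of Cacng6 levels at 40 of 40 places, which is a hint from the data, not from the labels, that they may come from the same mouse. With this place as a block in the joint fit, a choice made after seeing the data, the counts were 27, 27 and 21, and no member lost its call or turned its direction.

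The genotype effect was set beside the regional distribution of each member. The regional level was taken as the log2 ratio of a region over the mean of the other two in the WT libraries given the drug, which the vehicle comparison does not use. Over the 34 members, Spearman's rho between this ratio and the genotype effect was -0.61 in the striatum, -0.25 in the cortex and -0.35 in the cerebellum, beside -0.22, -0.23 and -0.18 over all genes. These are correlations across genes of the same libraries and are given as a description. The 5 members over 2-fold higher in the striatum (Cacna1h, Cacng4, Cacna2d3, Atp2b1 and Cacnb1) had a median genotype effect of -0.96 there, and the 897 such genes of the whole table -0.61. The 6 over 2-fold higher in the cerebellum, which include Atp2a3 at a log2 ratio of 5.22, had a median of -0.63, and the 1580 such genes -0.31. The 6 over 2-fold higher in the cortex had a median of -0.39 there, and the 961 such genes -0.46. Cacng3 fell in the cerebellum with a log2 ratio there of -3.70.

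The libraries given CHDI-00340246 gave a second set of R6/2 and WT samples that share none with the vehicle comparison. In them 21 of 36 members fell and 2 rose in the striatum (28.4% and 29.7% of all genes), 18 of 35 fell and 4 rose in the cortex (27.9% and 29.2%), 17 of 34 fell and 9 rose in the cerebellum (26.7% and 27.9%), and 2 of 20 fell and 5 rose in the liver (13.7% and 15.1%). On FPKM 6 members rose in the striatum and 8 in the liver, and with 1 replicate number left out at a time 2 to 4 rose in the cortex (2 without replicate 5), 2 to 8 rose in the liver (2 without replicate 2 and 8 without replicate 4) and 1 to 2 fell there (1 without replicate 5). Of the calls under vehicle, 23 of 24 in the striatum, 19 of 22 in the cortex, 25 of 25 in the cerebellum and 4 of 5 in the liver passed again in the same direction, and the remaining calls kept their sign. The share of all called genes that passed again was not counted. In the same tissue order, Spearman's rho between the log2 fold changes was 0.96, 0.93, 0.96 and 0.78 over the members. Over all genes it was 0.88, 0.87, 0.86 and 0.78, so such agreement was general. Both comparisons also share the spread estimated from the 40 libraries of a tissue. The median absolute difference between the log2 fold changes was 0.065 in the striatum, 0.081 in the cortex, 0.081 in the cerebellum and 0.16 in the liver. Slc8a2 had log2 fold changes of -1.42 ± 0.071 under the drug and -1.31 ± 0.071 under vehicle in the striatum. Atp2a3 had -1.82 ± 0.056 under the drug and -1.73 ± 0.056 under vehicle in the cerebellum. Cacna1e, higher in R6/2 cerebellum, had 0.93 ± 0.11 under the drug and 0.73 ± 0.11 under vehicle.

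**Figure D4:**
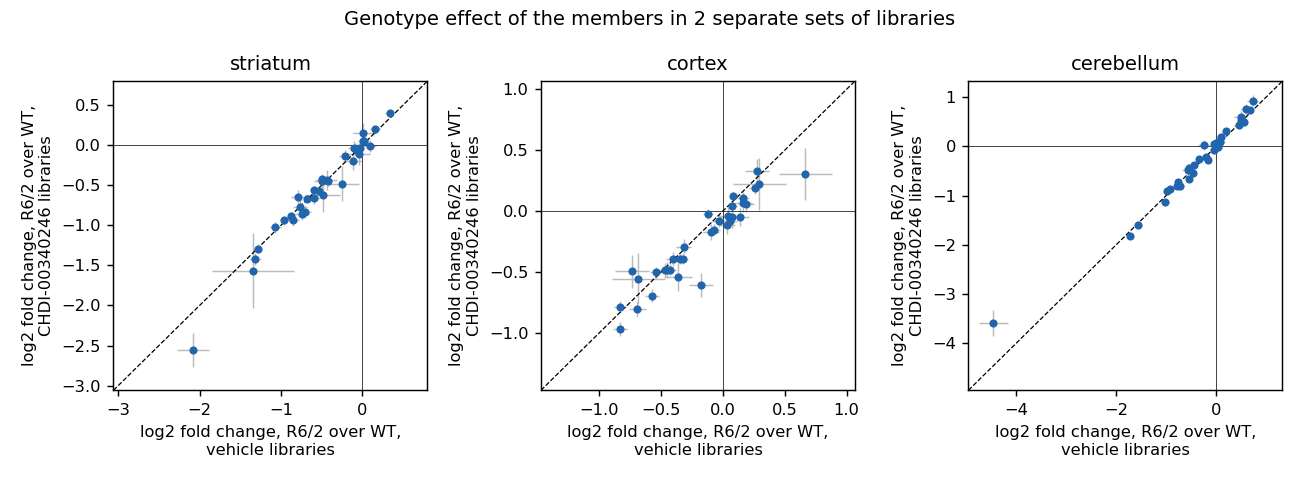
Log2 fold change of R6/2 over WT for each member tested, in the vehicle libraries (x axis) and in the CHDI-00340246 libraries (y axis), with bars of ± 1 standard error and a dashed line of equality; Cacng6 is left out for its wide error. The points lie along the line in all 3 regions, with Cacna1s at the lower left in the cerebellum (-3.60 under the drug and -4.46 under vehicle).

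The single dose of the inhibitor was followed by a called change in only 1 member. Cacna2d2 had 22.7, 26.96 and 32.2 CPM in R6/2 cortex with the drug, against 27.8, 39.9 and 54.1 CPM in R6/2 cortex with vehicle. The groups overlapped in part, and the log2 fold change of drug over vehicle was -0.46 ± 0.10, adjusted p = 0.0329 (edgeR), where 0.125% of all genes passed. The call was lost without the filter, on FPKM, and without replicate 1, 2, 3, 4 or 5 (adjusted p from 0.0567 to 0.237 in edgeR). In WT cortex Cacna2d2 averaged 42.4 ± 3.29 CPM with the drug and 43.3 ± 8.74 CPM with vehicle (SD, 10 libraries each), and the interaction of drug and genotype did not pass (-0.43 ± 0.14, adjusted p = 0.926). Beside this difference, the summed markers of medium spiny neurons were 274, 295 and 374 CPM in R6/2 cortex with the drug and 273, 433 and 501 CPM in R6/2 cortex with vehicle, and those of interneurons were 417, 466 and 632 CPM with the drug and 454, 559 and 729 CPM with vehicle. Both medians were lower with the drug, and the groups overlapped. Cacna2d2 itself had a mean level of 21.9 ± 2.42 FPKM in WT striatum and 7.995 ± 1.62 FPKM in WT cortex, and the part of these markers in the result was not tested.

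Averaged over genotypes, no member passed in any tissue, where 0% of all genes passed in the striatum, 0.188% in the cortex, 0.00581% in the cerebellum and 0% in the liver (edgeR). At an unadjusted p under 0.05, 6 of 36, 14 of 35, 3 of 34 and 1 of 20 members had differences in these tissues, beside 8.2%, 12.2%, 4.79% and 8.15% of all genes. In the cortex all of these members but Cacna2d2 were higher with the drug, and the direction over all genes was not counted. DESeq2 called 1 member in the cortex (Cacna2d2) and 0 elsewhere. The smallest p-values belonged to Cacna2d2 (-0.25 ± 0.068, adjusted p = 0.105) and Cacnb1 (0.10 ± 0.030, adjusted p = 0.154) in the cortex, Cacng1 (-0.48 ± 0.14, adjusted p = 0.469) and Cacna1a (0.10 ± 0.040, adjusted p = 0.605) in the striatum, Cacna2d3 (-0.13 ± 0.042, adjusted p = 0.722) and Cacng6 (1.88 ± 0.81, adjusted p = 0.997) in the cerebellum, and Cacng7 (-0.37 ± 0.16, adjusted p = 0.576) in the liver. Cacng6 has 2 separate ranges of level, described below. Its upper range held 7 of 10 R6/2 and 5 of 10 WT cerebellum libraries with the drug. With vehicle it held 5 of 10 and 2 of 10, and the part of this in its drug value was not tested.

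In R6/2 alone, no member passed in the striatum, cerebellum or liver (0%, 0.0407% and 0.0726% of all genes, edgeR). In each of these 1 member had an unadjusted p under 0.05, beside 6.39%, 4.09% and 7.51% of all genes. In R6/2 cortex Cacna2d2, Cacna2d3, Cacnb3 and Cacna2d1 had such a p, beside 7.27% of all genes. Cacna2d2 and Cacna2d3 were lower with the drug there, and Cacnb3 and Cacna2d1 higher. In WT alone and for the interaction, no member passed in any tissue, nor did any gene of the table (0%). At an unadjusted p under 0.05, WT had 3, 11, 1 and 0 members in the striatum, cortex, cerebellum and liver, beside 3.62%, 10.3%, 6.27% and 3.19% of all genes. The 11 of the cortex were all higher with the drug. Cacng6 was among those of the striatum and was the member of the cerebellum. The interaction had 0, 1, 1 and 0 members, beside 2.61%, 5.07%, 5.35% and 2.52% of all genes. DESeq2 also called 0 members in WT alone, for the interaction, and in R6/2 striatum, cerebellum and liver.

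In the liver the members were scarce, and only Atp2a2 (34.9 ± 6.90 FPKM), Atp2c1 (10.2 ± 0.934 FPKM) and Atp2b1 (4.73 ± 0.337 FPKM) had a mean above 1 FPKM in WT liver. Of 7 hepatocyte markers 4 fell and 1 rose there, with sums of 105900.0 to 128110.0 CPM in R6/2 liver and 71024 to 128590.0 CPM in WT liver, and their part in the liver results was not tested. Atp2b2 had 1.69, 2.97 and 8.88 CPM in R6/2 liver, against 0.208, 1.13 and 2.98 CPM in WT liver, with overlap (log2 fold change 1.83 ± 0.27, adjusted p = 6.42e-06, edgeR). Atp2a3 had 1.92, 2.34 and 3.53 CPM in R6/2 liver, against 0.411, 1.30 and 2.08 CPM in WT liver, also with overlap (1.01 ± 0.15, adjusted p = 5.73e-06, edgeR). Atp2c1 had 38.2, 45.8 and 48.7 CPM in R6/2 liver, against 36.1, 39.7 and 44.9 CPM in WT liver (0.18 ± 0.053, adjusted p = 0.012, edgeR), a call lost without replicate 1 or 5. Cacna1i was near the limit of detection at 0.169, 0.273 and 0.427 CPM in R6/2 liver, against 0.0587, 0.101 and 0.199 CPM in WT liver (1.41 ± 0.28, adjusted p = 0.000421, edgeR). Cacna1d was the member that fell, with 2.42, 2.84 and 4.09 CPM in R6/2 liver, against 3.58, 4.72 and 5.64 CPM in WT liver (-0.65 ± 0.10, adjusted p = 1.35e-05, edgeR).

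The genotype effect on Atp2b2 and Atp2a3 in the liver differed between the sexes. These were 2 of 20 members, where 17.1% of all genes passed. In females under vehicle, Atp2b2 had 2.51, 3.26, 3.48, 3.92 and 8.88 CPM in R6/2 liver, against 1.54, 1.65, 2.04, 2.75 and 2.98 CPM in WT liver. In males it had 1.69, 1.91, 2.32, 2.68 and 5.46 CPM in R6/2 liver, against 0.208, 0.306, 0.441, 0.578 and 0.712 CPM in WT liver. The groups were separate in males, where the WT values were the lowest of all, and overlapped in females. Averaged over treatments, the effect in females minus that in males was -1.34 ± 0.37, adjusted p = 0.0109 for Atp2b2 and -0.83 ± 0.21, adjusted p = 0.00498 for Atp2a3 on the log2 scale (edgeR). Without replicate 2 or without replicate 3 the call of Atp2b2 was lost and that of Atp2a3 was kept. In the brain no member passed this interaction, and 5, 1 and 1 members had an unadjusted p under 0.05 in striatum, cortex and cerebellum (edgeR), beside 8.83%, 6.65% and 6.8% of all genes.

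The libraries of Cacng6, a γ subunit first known from muscle, fell into 2 separate ranges within every brain group. The ranges were read from the data and are no groups of the study, and no test was made on them. In the cerebellum R6/2 with vehicle had 5 of 10 libraries between 0.632 and 1.41 CPM and 5 between 0 and 0.0586 CPM, and WT with vehicle had 2 of 10 libraries between 1.37 and 1.77 CPM and 8 between 0 and 0.0307 CPM. In the striatum R6/2 with vehicle had 5 of 10 libraries between 1.34 and 1.72 CPM and 5 between 0.106 and 0.248 CPM, and WT with vehicle had 2 of 10 libraries between 2.05 and 2.58 CPM and 8 between 0 and 0.202 CPM. In the cortex R6/2 with vehicle had 5 of 10 libraries between 2.62 and 3.62 CPM and 5 between 0.257 and 0.433 CPM, and WT with vehicle had 2 of 10 libraries between 7.15 and 7.88 CPM and 8 between 0.688 and 1.66 CPM. With the drug, 7 of 10 R6/2 libraries and 5 of 10 WT libraries were in the upper range in each region. Libraries at the same place in the numbering of the 3 regions, which share genotype, treatment and sex for 40 of 40 places, were in the upper range in all 3 regions at 19 places and in the lower range in all 3 at 21. The genotype effect had wide errors (log2 fold change 1.28 ± 0.84, adjusted p = 0.199, in the striatum by edgeR), and no contrast of Cacng6 passed except that, with the numbering place as a block, its genotype effect differed between the cortex and each of the other regions.

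**Figure D5:**
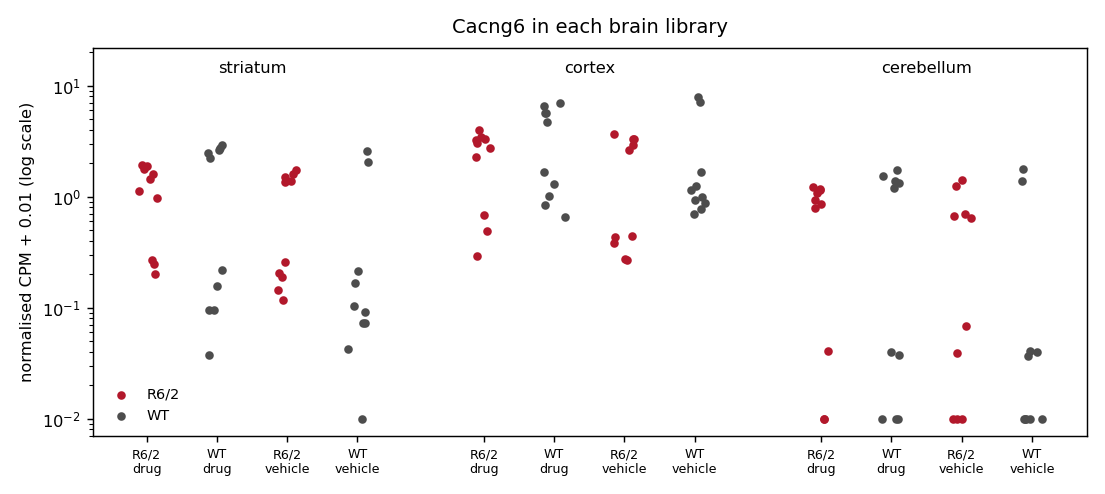
Normalised CPM of Cacng6 plus 0.01 (log y axis) in each brain library, by genotype, treatment and region (x axis), with R6/2 in red and WT in grey. Every group splits into an upper and a lower range with no library between them in its group.

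Other calcium genes also fell and rose, and each list below was counted under vehicle by the same edgeR test, in which 26.5% of all genes fell and 29.7% rose in the striatum, 26.9% and 28.1% in the cortex, and 26% and 26.3% in the cerebellum. Of the cytosolic buffers and sensors, 13 of 18 fell and 2 rose in the striatum, 14 of 18 fell and 1 rose in the cortex, and 12 of 16 fell and 2 rose in the cerebellum. Kcnip2, a potassium channel subunit that binds calcium, had 151.6 ± 11.1 CPM in R6/2 striatum and 401 ± 36.2 CPM in WT striatum (mean ± SD). Hpcal1 had 87.98 ± 6.45 CPM in R6/2 cerebellum and 240.3 ± 25.4 CPM in WT cerebellum. Of the calcium-dependent kinases and phosphatases, 12 of 19 fell and 3 rose in the striatum, 14 of 19 fell and 1 rose in the cortex, and 13 of 19 fell and 4 rose in the cerebellum. Camkk2, a kinase activated by calmodulin, had 127.96 ± 8.57 CPM in R6/2 cerebellum and 323 ± 16.6 CPM in WT cerebellum, and Ppp3ca, the calcineurin catalytic subunit, had 1188 ± 112.3 CPM in R6/2 striatum and 2476 ± 137.4 CPM in WT striatum. Both values of each gene are means over 10 libraries, and each passed in edgeR.

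Of the channel partners, 11 of 21 fell and 2 rose in the striatum, 9 of 21 fell and 5 rose in the cortex, and 9 of 21 fell and 5 rose in the cerebellum. Rem2, a small GTPase that inhibits calcium channels through β subunits, had 20.8 ± 3.34 CPM in R6/2 striatum and 50.9 ± 5.21 CPM in WT striatum. Stac2, an adaptor of L-type channels, had 43.5 ± 6.39 CPM in R6/2 cortex and 125.1 ± 14.6 CPM in WT cortex. Of the store and entry genes, 6 of 17 fell and 4 rose in the striatum, 5 of 17 fell and 7 rose in the cortex, and 8 of 17 fell and 3 rose in the cerebellum. Of the mitochondrial calcium genes, 4 of 12 fell and 6 rose in the striatum, 1 of 12 fell and 4 rose in the cortex, and 0 of 12 fell and 5 rose in the cerebellum. Mcu, the pore of the mitochondrial uniporter, had 62.4 ± 3.43 CPM in R6/2 cerebellum and 40.98 ± 3.99 CPM in WT cerebellum. Of the pump regulators, 5 of 8 fell and 2 rose in the striatum, 4 of 8 fell and 2 rose in the cortex, and 4 of 10 fell and 3 rose in the cerebellum. Of the potassium-dependent exchangers, 2 of 5 fell and 1 rose in the striatum, 2 of 6 fell and 0 rose in the cortex, and 3 of 5 fell and 0 rose in the cerebellum, among them Slc24a2, which had 335 ± 24.9 CPM in R6/2 cerebellum and 493 ± 57.4 CPM in WT cerebellum.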

How the data were processed

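Total RNA was sequenced from 160 libraries of mouse striatum, cortex, cerebellum and liver. Per the labels' protocols, RNA was extracted with miRNeasy kits, and per the submitters' processing notes CASAVA 1.8.2 was used. The aligner, counting program, genome build and strandedness were not given in the sources used here, so overlapping and antisense genes cannot be told apart. The authors deposited estimated counts per gene (68.53% of values above 0 were whole to within 1e-06), which were rounded for testing, and the authors deposited FPKM values. FPKM columns were used by group only: the best-correlated count column had the same header for 13 of 160 FPKM columns and belonged to the same group for 160.

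Each tissue was fitted alone over its 40 libraries, with a mean for every genotype, treatment and sex, in edgeR 4.0.16 (R 4.3.3; TMM factors, filterByExpr, robust quasi-likelihood test), and p-values were adjusted by Benjamini-Hochberg over all genes tested, with a threshold of 0.05. Sexes were weighted equally. Differences of the genotype effect between brain regions came from a joint fit of 120 libraries, taken as independent. Depth was 28.5 to 46.3 M estimated counts per library. The procedure was tested on simulated data. The alternatives were DESeq2 1.42.0, limma 3.58.1 on log2(FPKM + 1), RLE factors and no filter. Blocks for replicate number or library run, and leaving out replicates, were also used. A library run is a short stretch of consecutive library numbers, and no label names it as a batch. The codes beginning with L and D in the column headers were not used as blocks. Leaving out the library farthest from its group, and a block in the joint fit for the place in the library numbering, were chosen after seeing the data. Described in full were up to 5 members per tissue and direction with the smallest p among those passing under vehicle. For the drug and interaction contrasts the members that passed were described. For the drug averaged over genotypes, where none passed, the 2 with the smallest p were named in each brain region and 1 in the liver. The other contrasts without a passing member were mainly given as counts. The members and all gene lists were chosen with earlier results of these data known.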

Additional observations from a re-analysis of the deposited data

Results flagged for a closer look

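A single library stood apart from the other 9 of its group for 3 of the 64 pairs of named member and group examined, where chance gives about 1 in 20. Atp2c2 was at 3.325 CPM in 1 R6/2 vehicle cortex library, and the next was at 1.26 CPM. Slc8a3 was at 82.59 CPM in 1 R6/2 vehicle cerebellum library, with the next at 70.3 CPM. Atp2b2 was at 8.876 CPM in 1 R6/2 vehicle liver library, with the next at 5.46 CPM.

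The genotype effect passed with opposite signs in striatum and cerebellum for 5 members. The joint edgeR test of the difference passed for each. It used the same vehicle libraries that picked these members, so it is no separate support. The effect in the striatum minus that in the cerebellum was -1.526 for Cacna1e, -1.751 for Cacng4, -1.102 for Cacna1c, 0.3171 for Cacng7 and -1.247 for Slc8a3 on the log2 scale. In the liver, the effect in females minus that in males was -0.8276 for Atp2a3 and -1.342 for Atp2b2 on the log2 scale.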

How the results depend on the processing

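Under DESeq2, RLE factors, no filter, the replicate block, the library run block, the numbering place block (joint brain fit) and leaving out the farthest library, the counts of members that rose, fell or differed between regions stayed within 1.5 times those reported, apart from 2 drug counts in the cortex: DESeq2 called 1 member for the drug averaged over genotypes, against 0, and without the filter 0 members passed in R6/2, against 1. On FPKM, where the median log2 fold change of all genes was 0.11 in the striatum and 0.10 in the liver, against 0.018 and 0.0062 in edgeR, more members rose in R6/2: under vehicle 5 in the striatum, 10 in the cortex and 8 in the liver, and under the drug 6 in the striatum and 8 in the liver. The drug effect in R6/2 cortex then called 0. The cause was not tested. Leaving out each replicate number in turn, members higher in R6/2 under vehicle numbered 1 to 2 in the striatum and 3 to 9 in the cortex. Under the drug they numbered 2 to 4 in the cortex and 2 to 8 in the liver, members lower in R6/2 liver numbered 1 to 2, the drug effect in R6/2 cortex called 0 to 0, and the liver sex interaction called 1 to 2. With the replicate block, 2 members rose in the striatum, 7 in the cortex and 4 in the liver under vehicle, and the drug effect in R6/2 cortex called 1. Libraries with the same number did not deviate together (7 to 17 of 60 pairs per tissue had a correlation over 0.1), so the numbers were not taken to pair samples. Members under about 1 CPM (Cacna1s, Cacng1 and Atp2c2 in most tissues, and most members in the liver) rest on few counts.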
